A study of Mus musculus with 4 samples.

Results

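Splicing factors and heterogeneous nuclear ribonucleoproteins (hnRNPs) were followed in mouse liver between a fast and the first hours of feeding. The genes were chosen by name: every non-control spot of the array whose gene name starts with Srsf, the older Sfrs, Hnrnp, the older Hnrp, Snrp, Sf3a, Sf3b, Tra2a or Tra2b followed by the number or letters of a family member. This gave 63 genes with 101 probes, of 31709 gene names with 39429 probes on the array. Of these, 61 genes with 95 probes were well above background in fasted or refed liver on all 4 arrays and were tested, among 16071 genes with 19740 probes. The names span 6 groups: 11 SR proteins, 2 Tra2 proteins, 21 hnRNPs, 12 small nuclear ribonucleoprotein (snRNP) proteins, 8 subunits of splicing factor 3 (SF3) and 9 SR-related proteins that still carried Sfrs names on the array.

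The mice were C57BL/6J males, 8 to 12 weeks old, with no mutation or drug named, and total RNA was taken from their livers. Fasted mice had been without food for 24 h, and refed mice had been without food for 24 h and then had food for 2 h. Each of 4 two-colour Agilent arrays carried 1 fasted and 1 refed liver, so the value of a gene on an array is the log2 ratio of fasted over refed liver, which is above 0 where the gene was higher in fasted liver. Fasted liver was in Cy5 on replicates 1 and 2 and in Cy3 on replicates 3 and 4. A dye effect below is the distance of the mean with fasted liver in Cy5 from the mean over all 4 arrays. The 2 orientations held different livers, so a dye effect cannot be told apart from a difference between those livers or arrays. There was no group fed throughout, so a ratio cannot tell a level raised by the fast from a level lowered by the meal. In whole liver, fewer cells of a type and less RNA per cell cannot be told apart.

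Introns are removed by the spliceosome, whose snRNPs each hold a small nuclear RNA, a shared ring of Sm proteins and particle-specific proteins. SF3A and SF3B belong to the U2 snRNP and hold it at the branch point. SR and Tra2 proteins bind exonic enhancers and mostly favour the use of nearby splice sites, hnRNPs bind pre-mRNA and often oppose them, and SR proteins are themselves controlled by phosphorylation in response to signals that include insulin.

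Probes are of 60 bases, and the first 30 bases are printed in the order of the array design for the probes on which the results turn: the genes with the largest ratios, and pairs that differ within a gene. Positions are those of the whole probe in the array's annotation (mouse build mm9). No part is set in capitals.
Sf3a1, chr11:4080333-4080392, strand +: ccacaggacagtttcacactatcgagtgat
Akap17b, brightest probe, chrX:34148592-34148651, strand -: ggcggcttagtaaagaatgtaacgggacaa
Akap17b, other probe, chrX:34151874-34151933, strand -: attaaagatcctgagagtaagtcgcaaaag
Tra2a, chr6:49193948-49194007, strand -: tgggacattggttacatgggttattgtata
Snrpa, chr7:27972091-27972150, strand -: agggaccttctcagagccgtgtgtgtgtgg
Hnrnpdl, brightest probe, chr5:100463795-100463854, strand -: ctttgtcctttgctacctgtgttatgatga
Srsf5, chr12:82050878-82050937, strand +: ttcgagtagatctaaatctccagcatctgt
Srsf6, brightest probe, chr2:162760546-162760605, strand +: taggcagttactcttccgagtttatactcg
Srsf6, other probe, chr2:162762490-162762549, strand +: gcagaagtgactgacttaaagtgttttagt
Srek1, chr13:104531985-104532044, strand -: cttaatcatcttcaggtgtttagagttatg

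Of the 61 tested genes, 3 were higher and 9 were lower in fasted than in refed liver at an adjusted p under 0.10 (limma, two-sided, Benjamini-Hochberg over all 19740 probes), and 49 passed in neither direction. Over all 16071 genes, 4.97% were higher and 6.28% were lower by the same rule, beside 4.92% and 14.8% of the splicing genes. With a limit of 1.5-fold added, 2 splicing genes were higher, against 1.82% of all genes, and 4 were lower, against 2.12%. The ratio was above 0 on all 4 arrays for 5 splicing genes (14.2% of all genes) and below 0 on all 4 for 15 (15.7% of all genes). The median log2 ratio was -0.08 over the splicing genes and 0.003 over all genes. The mean was above 0 for 24 splicing genes and below 0 for 37, whereas over all genes 8158 means were above 0 and 7913 below. The number of arrays limits the precision: the 95% interval of a splicing gene's log2 ratio reached 0.22 to each side in the median, and for 46 of the 61 genes it lay within 1.5-fold.

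The genes that passed came from every group, and outside the Tra2 proteins they were a minority of each. SF3 had 3 of 8 lower, the snRNP proteins 2 of 12, and Tra2a was lower as the one tested member of its group. The SR proteins had 2 higher and 1 lower of 10, the hnRNPs 1 higher and 1 lower of 21, and the SR-related proteins 1 lower of 9. The plot by role shows these genes among members near 0.

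**Figure D1:**
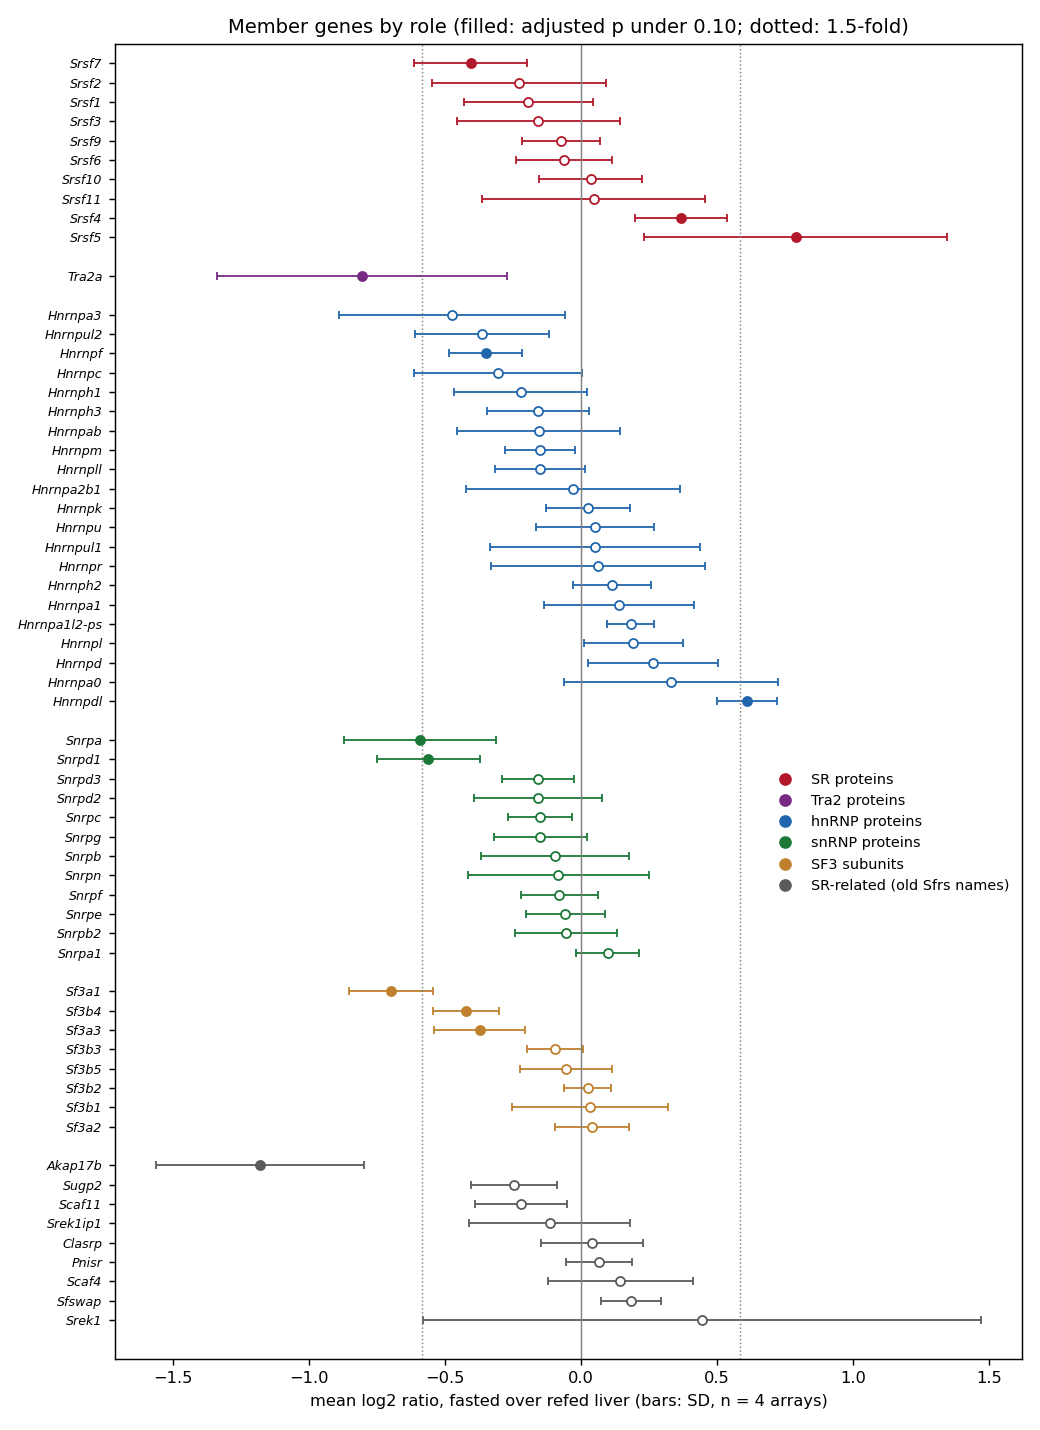
Mean log2 ratio of fasted over refed liver (x axis) for each of the 61 tested genes (y axis), by role, with bars of 1 SD over 4 arrays; filled circles have an adjusted p under 0.10 and dotted lines mark 1.5-fold. Most members lie between the dotted lines, with Akap17b, Tra2a, Sf3a1 and Snrpa below them and Srsf5 and Hnrnpdl above.

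Among the SF3 subunits, Sf3a1, a core subunit of SF3A, had log2 ratios of -0.50, -0.68, -0.75 and -0.86 on replicates 1 to 4. All 4 were below 0 and lay close together. It was 1.62-fold lower in fasted liver (log2 -0.70 ± 0.15, SD, n = 4, limma adjusted p = 0.013). Sf3b4, which contacts the pre-mRNA near the branch point, had ratios of -0.58, -0.45, -0.33 and -0.33. It was lower in fasted liver on each array, by 1.34-fold in the mean (log2 -0.42 ± 0.12, SD, n = 4, limma adjusted p = 0.035). Sf3a3, another SF3A subunit, had ratios of -0.15, -0.39, -0.56 and -0.40. Replicate 1 was nearest to 0, and the mean was -0.37 ± 0.17 (SD, n = 4, limma adjusted p = 0.065). The third SF3A subunit, Sf3a2, stood at 0.04 ± 0.14 (SD, n = 4), and the other SF3B subunits Sf3b1, Sf3b2, Sf3b3 and Sf3b5 lay between -0.10 and 0.03. None of these 5 passed.

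Among the snRNP proteins, Snrpa, the A protein of the U1 snRNP, had log2 ratios of -0.34, -0.38, -0.75 and -0.91. The 2 arrays with fasted liver in Cy3 gave the larger differences, and the dye effect itself passed (0.24, limma adjusted p = 0.076). Snrpa was 1.51-fold lower in fasted liver (log2 -0.59 ± 0.28, SD, n = 4, limma adjusted p = 0.042). Snrpd1, an Sm ring protein, had ratios of -0.32, -0.76, -0.53 and -0.65, and its mean was -0.56 ± 0.19 (SD, n = 4, limma adjusted p = 0.027). A second Snrpd1 probe was lower too, at -0.63 (adjusted p = 0.022). Of the 12 snRNP genes, 11 had a mean below 0, and the median of the 12 was -0.12. The 10 that did not pass ranged from -0.16 for Snrpd3 to 0.10 for Snrpa1. The other Sm ring genes, Snrpb, Snrpd2, Snrpd3, Snrpe, Snrpf and Snrpg, lay between -0.16 and -0.06, and whether Snrpd1 differed from them was not tested.

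Tra2a, a Tra2 protein that binds purine-rich exonic enhancers, had log2 ratios of -0.21, -0.50, -1.33 and -1.18. All were below 0, and the ratios with fasted liver in Cy3 were the further from 0. The mean was -0.80 ± 0.53 (SD, n = 4, limma adjusted p = 0.069), a fold of 1.75. Its mean was -0.36 in the first orientation and -1.25 in the swapped one, and the dye effect itself passed (0.45, adjusted p = 0.038). Its close relative Tra2b was well above background in 1 of 4 fasted and 3 of 4 refed channels and was not tested. Its ratios were 0.02, -0.13, -0.31 and -0.39.

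Srsf5, an SR protein known as SRp40, had log2 ratios of 0.98, -0.02, 0.95 and 1.25. The other arrays were near 1 and replicate 2 was at 0, so the mean of 0.79 ± 0.56 (SD, n = 4, limma adjusted p = 0.080) was higher in 3 of 4 arrays. Srsf4 had ratios of 0.13, 0.50, 0.38 and 0.46, all above 0, with a mean of 0.37 ± 0.17 (SD, n = 4, limma adjusted p = 0.068). Srsf7, which binds exonic enhancers and takes part in mRNA export, went the other way. Its ratios were -0.15, -0.44, -0.65 and -0.38, with a mean of -0.41 ± 0.21 (SD, n = 4, limma adjusted p = 0.068). The 7 other tested SR genes had means from -0.23 for Srsf2 to 0.05 for Srsf11, and none passed. Srsf12 was not well above background in any channel.

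Among the hnRNPs, Hnrnpdl, a relative of the AU-rich element binding protein Hnrnpd, had log2 ratios of 0.50, 0.55, 0.63 and 0.75. It was 1.53-fold higher in fasted liver with little spread (log2 0.61 ± 0.11, SD, n = 4, limma adjusted p = 0.014). Hnrnpd itself stood at 0.27 ± 0.24 (SD, n = 4) and did not pass. Hnrnpf, which binds runs of G, had ratios of -0.16, -0.39, -0.40 and -0.46 and a mean of -0.35 ± 0.13 (SD, n = 4, limma adjusted p = 0.061). The other 19 hnRNPs did not pass. The largest of them were Hnrnpa3 at -0.47, Hnrnpul2 at -0.36 and Hnrnpa0 at 0.33. Hnrnpl at 0.19 and Hnrnpa1l2-ps at 0.18, whose current symbol marks a pseudogene, were above 0 on each array. The median of the 21 hnRNPs was 0.02.

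The largest ratio of all belonged to Akap17b, annotated as a protein kinase A anchoring protein and named Sfrs17b on the array. Its log2 ratios were -0.64, -1.22, -1.35 and -1.52, which put every array below 0 and replicate 1 nearest to it. It was 2.27-fold lower in fasted liver (log2 -1.18 ± 0.38, SD, n = 4, limma adjusted p = 0.014). The 8 other SR-related genes did not pass, with Sfswap at 0.18 and Scaf4 at 0.14 on the higher side. Srek1, which has 1 probe, had ratios of 1.31 and 1.36 with fasted liver in Cy5 and of -0.48 and -0.40 with fasted liver in Cy3. Its mean of 0.45 ± 1.03 (SD, n = 4) is thus the mean of opposite signs that followed the dye orientation. Its dye effect was 0.89 (limma adjusted p = 0.003). The Srek1 probe shares a run of at least 20 bases with probes of 53 other gene names, the longest being 32 bases of a Ldlrad3 probe that had ratios of 1.24, 1.25, -0.34 and -0.30.

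**Figure D2:**
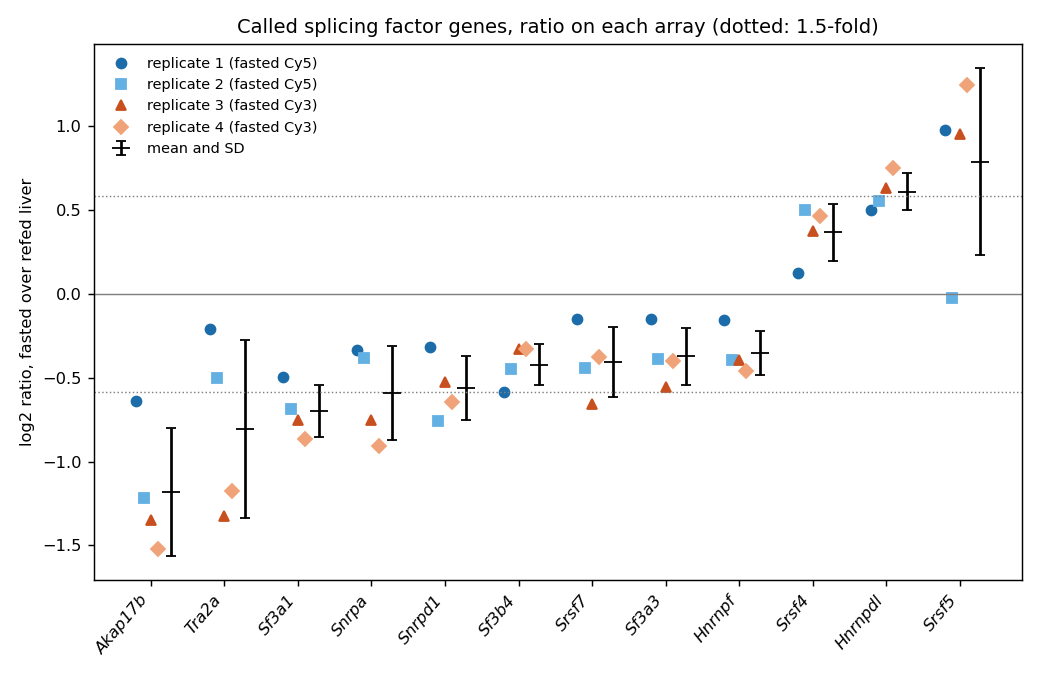
Log2 ratio of fasted over refed liver (y axis) on each array for the 12 genes with an adjusted p under 0.10 (x axis), with the mean and a bar of 1 SD; blue points had fasted liver in Cy5 and orange points in Cy3, and dotted lines mark 1.5-fold. All 4 arrays lie on the same side of 0 for 11 of the 12 genes, and Srsf5 has replicate 2 at -0.02.

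Dye orientation moved with the ratios of many members. Of the 95 tested splicing probes, 20 (21.1%) had a dye effect at an adjusted p under 0.10, against 14.7% of all probes. Across the 19740 probes the ratios of arrays with the same orientation correlated at 0.66 and 0.75, and those of opposite orientation at 0.22 to 0.40. Over the 61 splicing genes these ranges were 0.75 to 0.87 and 0.33 to 0.42, as descriptions across genes that share the same livers. Beyond Srek1, Tra2a and Snrpa, Hnrnpa2b1 had a mean of 0.31 on replicates 1 and 2 and of -0.37 on replicates 3 and 4. Hnrnpa0 had 0.67 and -0.005. With a dye term in the model, 7 splicing genes were higher (12.9% of all genes) and 17 were lower (13.8% of all genes), and they included the 12 above. The 12 added genes were Srek1, Hnrnpa0, Hnrnpd, Hnrnpa1l2-ps, Hnrnpa3, Hnrnpc, Hnrnph1, Hnrnpul2, Srsf1, Srsf2, Scaf11 and Sugp2.

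**Figure D3:**
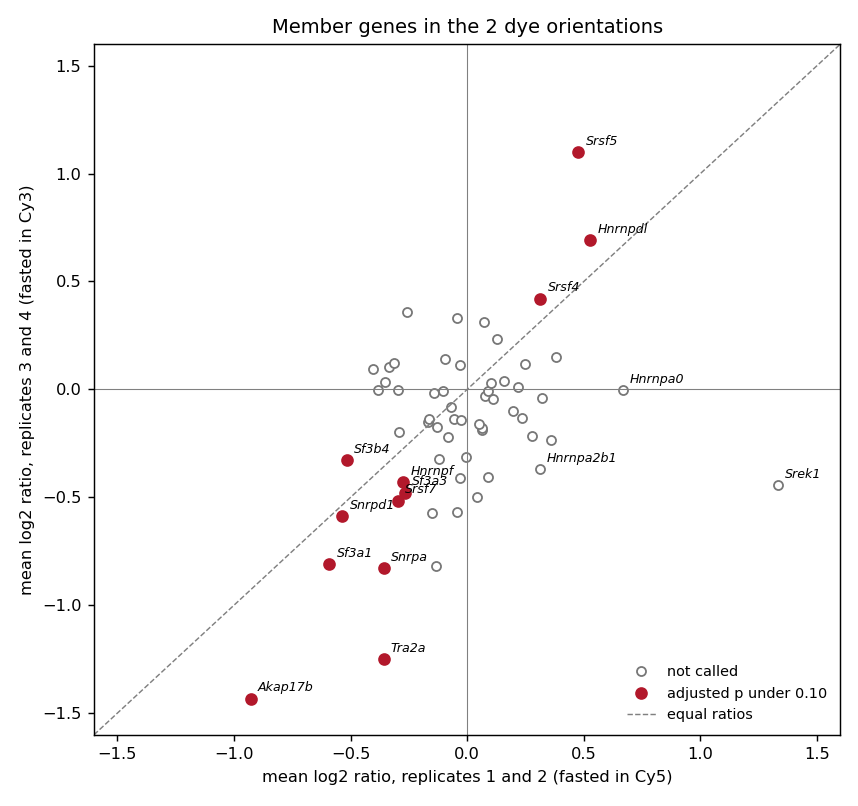
Mean log2 ratio of fasted over refed liver on replicates 1 and 2, fasted in Cy5 (x axis), against replicates 3 and 4, fasted in Cy3 (y axis), for the 61 tested genes; filled circles have an adjusted p under 0.10 and the dashed line marks equal ratios. The filled genes lie in the lower left and upper right corners, while Srek1 lies far to the right at 1.33 and -0.44.

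Single arrays set part of the calls. Akap17b, Sf3a1 and Hnrnpdl passed with any 1 array left out, with means of -1.07 to -1.36, -0.64 to -0.77 and 0.56 to 0.65. Without replicate 3 they were the 3 genes of the 12 that still passed. Over the whole array, 203 probes were higher and 250 lower at 1.5-fold without replicate 3, in place of 335 and 409. Snrpd1 did not pass without replicate 3 (-0.57), and Snrpa did not pass without replicate 3 (-0.54) or replicate 4 (-0.49). Sf3b4 did not pass without replicate 2 (-0.41) or replicate 3 (-0.45). These 3 genes kept means near those over all 4 arrays.

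Tra2a did not pass without replicate 2 (-0.90), replicate 3 (-0.63) or replicate 4 (-0.68). Srsf5 did not pass without replicate 1 (0.73), replicate 3 (0.73) or replicate 4 (0.64), and stood at 1.06 without replicate 2. Srsf4, Srsf7, Sf3a3 and Hnrnpf passed only with all 4 arrays or without replicate 1. Their means without replicates 2, 3 and 4 were 0.32, 0.36 and 0.33 for Srsf4, and -0.39, -0.32 and -0.42 for Srsf7. Those of Sf3a3 were -0.37, -0.31 and -0.36, and those of Hnrnpf were -0.34, -0.34 and -0.32. Hnrnpa3 passed without replicate 1, at -0.63.

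The calls also rest on 55 of 177588 spots with extreme local background, which lay on replicates 1, 3 and 4 and held no member spot. With these spots in the background fit none of the 12 genes passed, and over the whole array 5 probes were higher and 15 lower at 1.5-fold, in place of 335 and 409. All 12 kept their direction with smaller ratios: Akap17b stood at -0.49, Sf3a1 at -0.35, Tra2a at -0.34, Snrpd1 at -0.33, Snrpa at -0.29 and Sf3b4 at -0.28. Srsf7 and Sf3a3 stood at -0.21, Hnrnpf at -0.32, Srsf4 at 0.19, Hnrnpdl at 0.39 and Srsf5 at 0.58. The plot by processing shows this column beside the rest.

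**Figure D4:**
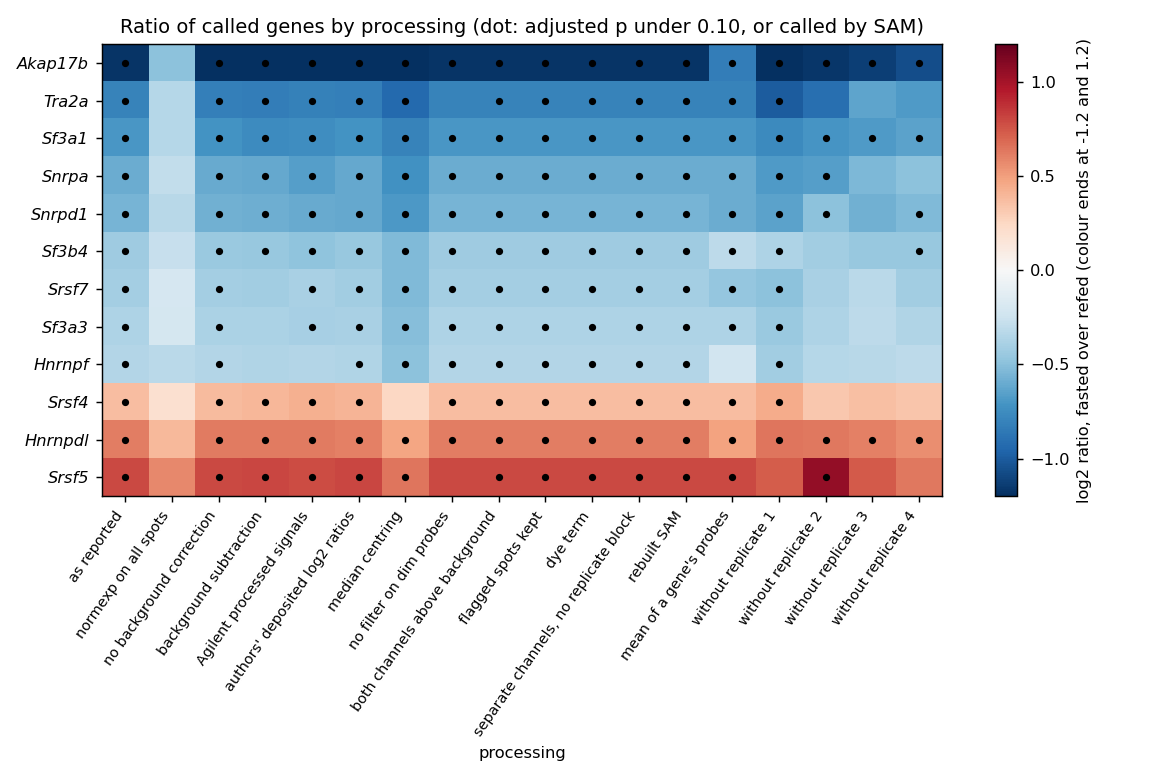
Log2 ratio of fasted over refed liver (colour) for the 12 genes (y axis) under each processing (x axis); a dot marks an adjusted p under 0.10, or a call by SAM. The second column, normexp on all spots, has no dots, and the last 3 columns have the fewest of the rest.

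Genes with several probes were read out more than once for 26 of the splicing genes. The means had the same sign on every tested probe for 23 of them and opposite signs for Srsf2, Srsf6 and Srsf10, of which no probe passed. The widest of these was Srsf6, at -0.06 ± 0.18 on its brightest probe and 0.44 ± 0.43 on the other (SD, n = 4 each). Both Akap17b probes were lower in fasted liver, at -1.18 and -0.47 (adjusted p = 0.024 for the other), although that other probe was well above background in 1 of 4 fasted channels. Second probes of Hnrnpdl at 0.36, Srsf7 at -0.52, Sf3b4 at -0.21 and Hnrnpf at -0.12 had the sign of the first but did not pass. The second Sf3b4 probe was also well above background in 1 of 4 fasted channels. This probe and the other Akap17b probe were kept through the 4 refed channels alone, which favours ratios below 0. The 7 probes of Hnrnpa3 ranged from -0.49 to -0.02, and 2 passed, at -0.49 (adjusted p = 0.045) and -0.41 (adjusted p = 0.035). The first of these shares 54 of 60 bases with a probe of another name. Hnrnpc, which binds uridine tracts, was at -0.31 on its brightest probe and passed on the other, at -0.48 (adjusted p = 0.047).

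**Figure D5:**
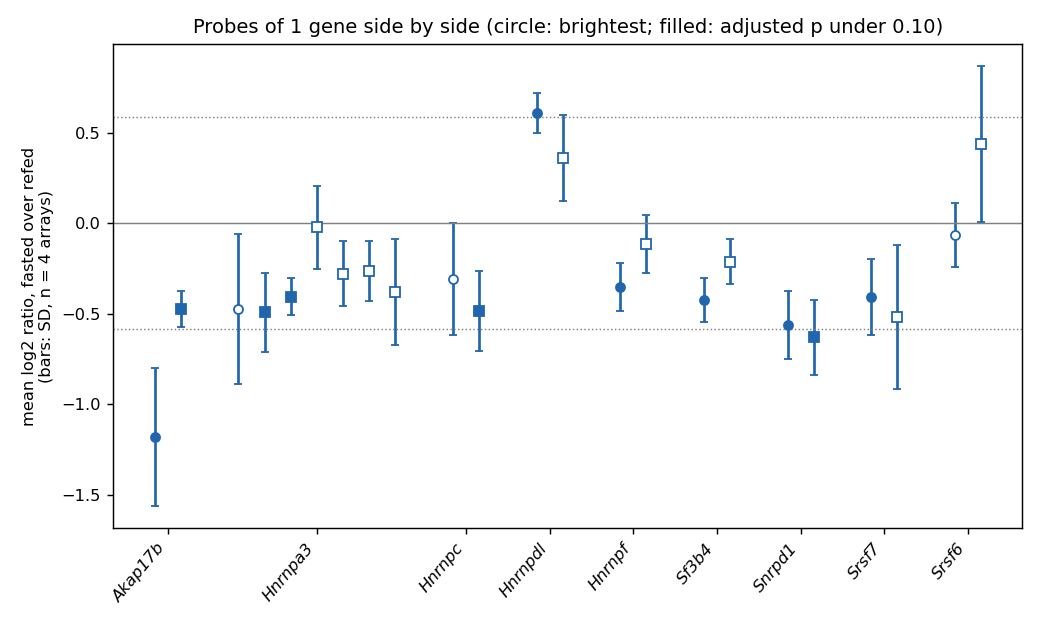
Mean log2 ratio of fasted over refed liver (y axis) with a bar of 1 SD over 4 arrays for each tested probe of 9 genes (x axis); circles are the brightest probe of a gene, squares its others, and filled symbols have an adjusted p under 0.10. The probes of each gene lie on 1 side of 0 except for Srsf6.

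The other proteins of the splicing machinery were taken from lists of related factors, and their counts stand beside the 4.97% of all genes that were higher and the 6.28% that were lower. Of 10 tested SR protein kinases and phosphatases, 1 was higher, Clk1, a kinase of SR proteins, at 0.36 ± 0.08 (SD, n = 4, limma adjusted p = 0.041). Of 20 other SR-related and branch point factors 1 was higher, Son at 0.31, and none was lower. Of 45 tri-snRNP, Prp19 and Lsm proteins 1 was higher, Prpf18 at 0.43, and 4 (8.89%) were lower, with Lsm3 lowest at -0.53. Of 19 proteins of the SMN complex and of snRNA caps and import 2 (10.53%) were lower, Snupn at -0.52 and Gemin6 at -0.51. Of 44 other RNA-binding regulators 6 (13.6%) were lower, and Rbm10 at -0.63, Sfpq at -0.62 and Tardbp at -0.60 were lower by more than 1.5-fold.

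Markers of other cells were read on the same arrays. All 10 hepatocyte markers were tested, with medians of 0.26, 0.36, -0.07 and -0.12 on replicates 1 to 4, and 1 passed, Cps1 at 0.31 (adjusted p = 0.076). Of 8 endothelial, stellate and bile duct markers 7 were tested, with medians between -0.10 and 0.21, and 1 passed, Stab2 at 0.35 (adjusted p = 0.048). Of 10 pancreatic acinar markers 4 were tested, and their median log2 ratio was -3.37 on replicate 3 but between -0.01 and 0.05 on the others. The summed signal of these 4 ran from 962 to 1890 in fasted and from 932 to 20829 in refed livers, and the other 6 were not tested. Of 4 blood cell markers 3 were tested, with medians of 0.39, -0.26, 1.12 and 0.25 on replicates 1 to 4, and Hba-a1 was at 2.45 on replicate 1 and 2.48 on replicate 3. Of 9 Kupffer cell and leukocyte markers 7 were tested, with medians between -0.24 and 0.32, and of 6 dividing cell markers 3 were, with medians between -0.28 and 0.27. Their part in the splicing genes' ratios was not tested. Which genes passed with replicate 1 or 3 left out is given above.

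Promoter sequences were found for 55 of the 63 genes in RefSeq (GRCm38.p6), at 1 transcription start a gene, and 7 short motifs were searched on both strands from 250 bases before to 50 bases after it. The CRE, the element bound by CREB, was searched as TGACGTCA and, in the short form that lies within it, as TGACG. The full CRE was in the promoters of Tra2a, Snrpa and Snrpg, 5.45% of members, against 3.13% of the promoters of tested genes and 1.85% of all promoters. The short form was in 27 members (49.1%), against 30.5% and 20.9%. The full CRE was in 2 of 7 members that were lower in fasted liver, in none of 3 that were higher and in 1 of the other 45, which include the untested Srsf12 and Tra2b. The short form was in 2 of 7 that were lower, in 1 of 3 that were higher and in 24 of those 45, and whether any of these shares differ was not tested. The ETS core CCGGAAG was in 32.7% of members against 17.5% of tested genes, and the GC box GGGCGG was in 70.9% against 60.7%. The CCAAT box CCAAT was in 45.5% against 38.4%, the TATA box TATAAA in 12.7% against 8.31% and the E-box CACGTG in 6 of 55 members against 1008 of 10027 tested genes. The 250 bases before the start are printed for both lower genes with a full CRE and for Srsf5, the higher gene with a short form, with TGACG or CGTCA, or the full element, in capitals. A match is a description of these letters.
Tra2a, chr6:49264053-49264302, strand -: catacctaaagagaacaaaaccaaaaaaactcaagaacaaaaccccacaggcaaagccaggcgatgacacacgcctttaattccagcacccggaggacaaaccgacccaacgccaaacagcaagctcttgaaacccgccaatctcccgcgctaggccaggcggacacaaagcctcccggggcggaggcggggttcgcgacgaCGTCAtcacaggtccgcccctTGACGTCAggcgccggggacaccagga
Snrpa, chr7:27196272-27196521, strand -: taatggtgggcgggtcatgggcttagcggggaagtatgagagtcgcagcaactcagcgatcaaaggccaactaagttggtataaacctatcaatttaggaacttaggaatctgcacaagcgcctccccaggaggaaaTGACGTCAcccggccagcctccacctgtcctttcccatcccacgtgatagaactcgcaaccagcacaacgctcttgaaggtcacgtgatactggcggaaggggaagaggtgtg
Srsf5, chr12:80945249-80945498, strand +: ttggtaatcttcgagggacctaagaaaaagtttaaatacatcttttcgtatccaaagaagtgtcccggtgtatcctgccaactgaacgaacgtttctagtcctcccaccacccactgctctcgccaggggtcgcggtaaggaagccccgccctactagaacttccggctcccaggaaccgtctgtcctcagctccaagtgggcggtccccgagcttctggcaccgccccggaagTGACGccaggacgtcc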

How the data were processed

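RNA was hybridised to 4 two-colour Agilent arrays with the dyes swapped on 2 of them. The deposited scanner files hold the authors' median spot and local background intensity, and the deposited value table holds the authors' normalized log2 ratios, whose rows were matched to spots by row number (correlation with the ratios computed here 0.975 to 0.992 over kept probes; over all probes 0.529 on replicate 1 and 0.918 to 0.955 on the others), running fasted over refed. The medians of its columns were -0.117, -0.081, 0.057 and 0.014, after the print-tip loess in limma that the study's methods name. It served as an alternative. Per the labels, limma was among the authors' tools.

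Intensities were background-corrected by normexp (offset 50) after leaving out 55 of 177588 spots with a local background above 3 times the array's median, normalized by loess within each array, and averaged per probe (limma 3.58.1, R 4.3.3). Flagged spots were left out. A probe was kept where each of the 4 fasted channels, or each of the 4 refed channels, had it well above background, and each gene was represented by its brightest probe. The 4 ratios, turned so that fasted is over refed, were fitted by lmFit and eBayes and p-values were adjusted by Benjamini-Hochberg across the kept probes of the array. The fit was also run on simulated ratios that had no dye effect and shifts larger than the mean ratio of any splicing gene. A call had an adjusted p under 0.10, the false discovery limit of the study's methods, with and without 1.5-fold. An exact sign-flip test on 4 arrays cannot go below p = 0.125. The p-values measure the spread between the 4 ratios, which holds differences between livers, arrays and dye orientations, as the main fit had no dye term.

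Members and lists were chosen with earlier results of these data known. Genes named are those that passed, the 10 largest ratios in each direction, and listed genes past 1.5-fold; others, such as Srsf6, Hnrnpc, Sf3a2, Srsf10 and the listed genes under 1.5-fold, were chosen after their values were seen. One result among the listed genes is not reported here. Gene names were updated through RefSeq by accession for 26055 probes and by symbol for 4125. Alternatives covered background correction, normalization, filters, a dye term, the test, the probe rule and leaving out each array.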

Additional observations from a re-analysis of the deposited data

Results flagged for a closer look

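Srsf10 stood at 0.32 on replicate 2, whereas its other log2 ratios lay between -0.09 and -0.04, a gap of 0.866 of the whole range. Sf3a2 stood at -0.17 on replicate 2, whereas the others lay between 0.10 and 0.12, a gap of 0.924 of the range. By Dixon's 95% limit for 4 values both lay far from the rest, and chance gives about 1 such gene in 20, against 2 of the 61 genes tested. Neither gene passed the test.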

How the results depend on the processing

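Direction and calls were recomputed under 17 alternatives for 21 member genes, the 12 that passed and those with the 10 largest ratios each way. Akap17b, Sf3a1 and Hnrnpdl kept their calls under 16 of them, all but normexp on all spots, under which no gene was called (0 higher and 0 lower, and 0 and 0 at 1.5-fold). Scaf4 turned from 0.14 to -0.011 under that setting, with no call under either; none of the other 20 turned under any of the 17. The cause was not tested. With a dye term 7 genes were higher and 17 lower, and Agilent's processed signals gave 5 higher. At 1.5-fold 1 gene was higher under median centring, without the filter on dim probes, and with the mean of a gene's probes. Tra2a and Srsf5 did not pass without that filter, Srsf7, Sf3a3 and Hnrnpf under background subtraction, Hnrnpf under the processed signals and the mean of probes, and Srsf4 under median centring. A limit of 2-fold left 0 higher and 1 lower. Median centring moved the median of the splicing genes to -0.20 and that of all probes to -0.06, and of all probes called at 1.5-fold 26.6% were higher, in place of 45.0%. Leaving out each array gave 1 to 2 genes higher and 2 to 10 lower, and at 1.5-fold 0 to 2 higher and 2 to 6 lower. Without replicate 2, 6 of the 12 genes passed, without replicate 3, 3 did, without replicate 4, 5 did, and without replicate 1, 11 did. Over all probes at 1.5-fold, 413 were higher and 525 lower without replicate 1, and 263 and 291 without replicate 2. They were 203 and 250 without replicate 3 and 281 and 319 without replicate 4, in place of 335 and 409. Taking the 8 channels without the pairing on the array (no replicate block) called 3 higher and 9 lower, the same 12 genes, and so did the authors' log2 ratios. SAM rebuilt on 16 sign flips called 15, among them the 12. Depth on arrays is signal over background: Tra2b and Srsf12 were too dim to test, and the offset of 50 draws ratios of dim probes toward 0.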
